A study of Mus musculus with 15 samples.

Results

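The Hox genes were followed through whole fetal gonads of the mouse at embryonic day 15.5 (E15.5). These genes encode homeodomain transcription factors and lie in 4 clusters, *Hoxa* to *Hoxd*, in which a gene's paralogue number gives its place along the cluster. Genes with low numbers are switched on early and towards the head, and genes with high numbers later and towards the tail, so that the combination of Hox proteins in a tissue is tied to its position along the body. The gonads form in the trunk from intermediate mesoderm and coelomic epithelium, next to the mesonephros and its ducts, where *Hoxa* genes of high number pattern the female reproductive tract. Hox proteins bind DNA together with the TALE homeodomain proteins of the Pbx, Meis and Pknox families, and their chromatin is held by Polycomb and Trithorax proteins. Of 39 mouse Hox genes in RefSeq, 33 had a transcript cluster, the array's unit for a transcribed region, that was annotated to that gene alone, and these 33 are the members described. They comprised 8 *Hoxa*, 9 *Hoxb*, 9 *Hoxc* and 7 *Hoxd* genes. The other Hox genes, most of them on clusters that carried several symbols, were not analysed here.

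The 3 groups of 5 arrays were compared, each array holding RNA of gonads separated from the mesonephros. The dKO XY group held XY gonads that lacked both anti-Müllerian hormone and the activin B subunit (*Amh*-/-; *Inhbb*-/-). The study describes such gonads at E15.5 as ovotestes, with ovarian domains at the poles. Control XY gonads were wild type testes and control XX gonads wild type ovaries, from crosses of *Amh*+/-; *Inhbb*+/- parents on a C57BL/6 background. The mutant alleles were inherited and not limited to the gonad. The study's methods describe the arrays of a group as biological replicates. The targeted genes were read first. *Amh* measured 4.51 in dKO XY and 11.47 in control XY gonads, a difference of -6.96 (SE 0.18), and *Inhbb* differed by -1.26 (SE 0.08), with adjusted p = 2.47e-12 and 6.83e-08. The *Inhbb* cluster still read 9.27 in dKO XY, near the 9.18 of wild type ovary, against 10.53 in control XY, so its signal was lower but not absent in the knockout. All levels and differences are in the log2 units of the deposited table. That scale reaches 19.93, beyond what a scanner can give on a plain log2 scale, so the word 2-fold, used here for 1 unit, is a convention and not a measured ratio. A gene passed where limma gave it an adjusted p under 0.05, with the Benjamini-Hochberg adjustment made over the 65956 clusters tested.

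Most Hox genes were dim on these arrays. A group mean counted as above background when it exceeded 5.95, the 95th percentile of 23 background probe sets that match no mouse sequence, and 15 of the 33 members exceeded it in at least 1 group. Those 15 were *Hoxa5* and *Hoxa6*, *Hoxb5*, *Hoxb6* and *Hoxb9*, *Hoxc4*, *Hoxc5*, *Hoxc6*, *Hoxc8*, *Hoxc9* and *Hoxc10*, and *Hoxd8*, *Hoxd9*, *Hoxd10* and *Hoxd11*. The other 18, namely every member with paralogue number 1 to 3, 12 or 13 together with *Hoxa4*, *Hoxa10*, *Hoxa11*, *Hoxb7*, *Hoxb8* and *Hoxc11*, were not above background in any group. Among the 15, *Hoxa5*, *Hoxa6*, *Hoxb5*, *Hoxc10* and *Hoxd11* had dKO XY means of 5.62 to 5.91, not above background. This bounds how low those levels can be read. *Hoxa10*, *Hoxa11* and *Hoxa13*, which pattern parts of the adjoining duct, had group means of 4.68 to 4.79, 3.54 to 3.66 and 4.06 to 4.09.

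Between dKO XY and control XY gonads, 9 of the 33 Hox genes were lower, none was higher and 24 did not pass the test. The lower genes were *Hoxc4*, *Hoxc5*, *Hoxc6*, *Hoxc8* and *Hoxc9*, *Hoxd9*, *Hoxd10* and *Hoxd11*, and *Hoxb5*. They fell by 0.30 to 0.98 units, and none reached the 2-fold threshold of the study's methods. Of all clusters tested, 6.02% were lower and 4.41% higher at the same adjusted p, and 1.62% were lower by at least 1 unit. Among clusters with 1 gene symbol the shares were 5.89% lower and 7.53% higher, and 0.567% of all clusters were higher by at least 1 unit. The median difference of the 33 members was -0.06, beside 0.01 over all clusters. By cluster, 5 of 9 *Hoxc* genes, 3 of 7 *Hoxd* genes, 1 of 9 *Hoxb* genes and 0 of 8 *Hoxa* genes were lower. For *Hoxa*, where 0 genes passed, all differences lay between -0.25 and 0.10. Of the 9 calls, 7 held in every setting of the fit apart from the 2-fold threshold. *Hoxb5* lay at the threshold (adjusted p = 0.0498) and *Hoxc9* lost its call in the fits that left out replicate 1, 3 or 4 of dKO XY or replicate 5 of control XY.

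**Figure D1:**
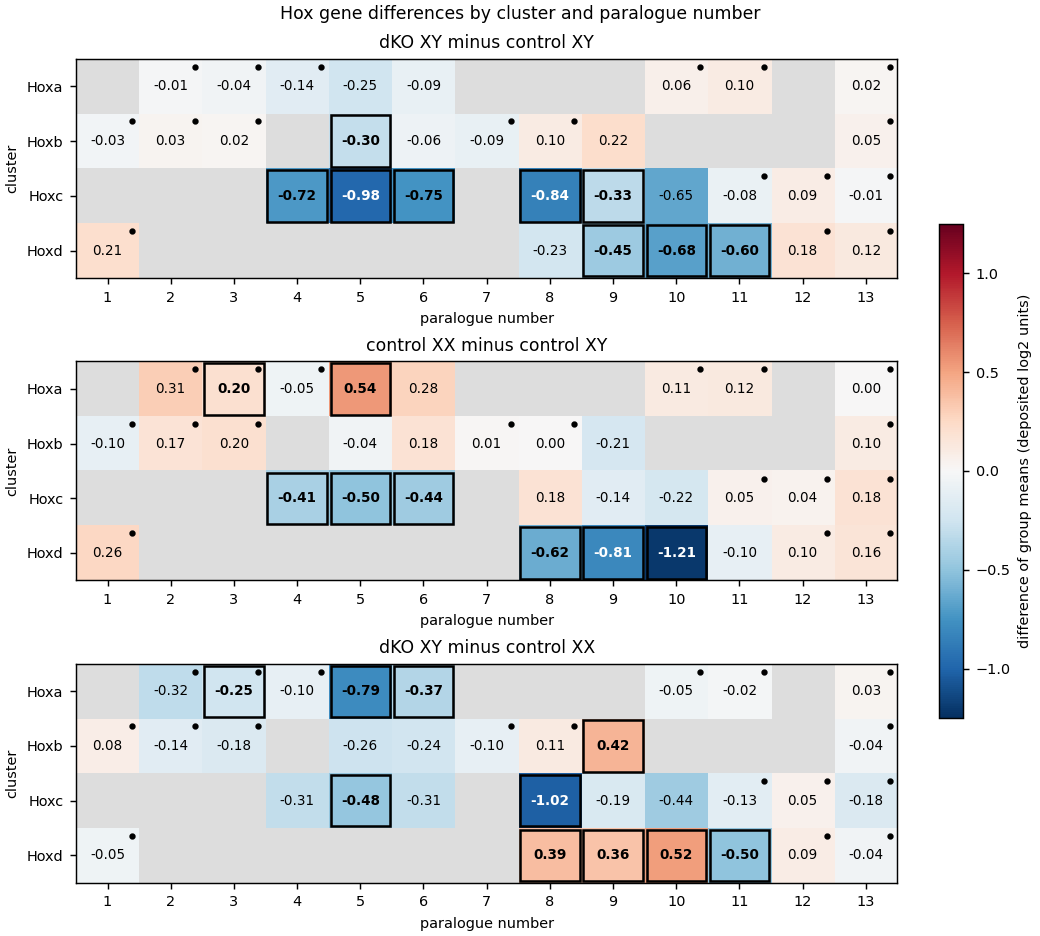
Differences of group means (deposited log2 units) for the 33 Hox genes, by cluster (rows) and paralogue number (columns), in the 3 comparisons. Black frames with bold values mark genes that passed the test, dots mark genes not above background in any group, and grey cells have no member. The framed genes of dKO XY minus control XY lie in *Hoxc*, *Hoxd* and *Hoxb*, and those of control XX minus control XY in *Hoxa*, *Hoxc4* to *Hoxc6* and *Hoxd8* to *Hoxd10*.

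The *Hoxc* genes of middle number held the largest falls. *Hoxc4*, *Hoxc5* and *Hoxc6* are neighbours and specify segment identity in the neck and upper trunk of the vertebral column and spinal cord. *Hoxc6* measured 10.55, 10.66, 10.46, 10.54 and 10.94 in control XY, 9.85, 10.03, 9.60, 10.05 and 9.86 in dKO XY, and 10.18, 10.29, 10.26, 9.98 and 10.23 in control XX gonads. Every dKO XY array lay below every control XY array, and the control XX arrays lay below control XY and partly overlapped dKO XY. *Hoxc6* fell by 0.75 (SE 0.10, adjusted p = 0.00021) in dKO XY and by 0.44 (SE 0.10, adjusted p = 0.00426) in control XX against control XY.

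*Hoxc4* measured 7.71, 8.0, 7.70, 7.59 and 8.27 in control XY, 7.19, 7.16, 7.04, 7.14 and 7.12 in dKO XY, and 7.30, 7.65, 7.49, 7.30 and 7.47 in control XX gonads. The 5 dKO XY arrays lay within a narrow band below all 10 control arrays. The difference from control XY was -0.72 (SE 0.11, adjusted p = 0.00062). Control XX was also lower than control XY, by -0.41 (SE 0.11, adjusted p = 0.0129), while dKO XY minus control XX, at -0.31 (SE 0.11), missed the threshold (adjusted p = 0.0804) although the arrays did not overlap.

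*Hoxc5* had the largest difference of all members between dKO XY and control XY. It measured 6.89, 7.51, 7.04, 7.02 and 7.57 in control XY, 6.38, 6.22, 5.86, 6.19 and 6.47 in dKO XY, and 6.39, 6.83, 7.05, 6.61 and 6.64 in control XX gonads. The dKO XY and control XY arrays did not overlap, and control XX overlapped both. The difference was -0.98 (95% interval -1.31 to -0.65, adjusted p = 0.000673) for dKO XY and -0.50 (-0.83 to -0.17, adjusted p = 0.0252) for control XX against control XY. The second of these calls was lost when control XY replicate 2 or 5, or control XX replicate 1, 4 or 5, was left out (adjusted p up to 0.0699). A second quantile normalisation (0.0609) and centred medians (0.0568) also took it past the threshold.

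*Hoxc8* acts in limb-level spinal cord and in the thoracic skeleton. It measured 7.63, 7.72, 7.56, 7.69 and 7.51 in control XY, 7.30, 6.89, 5.99, 6.72 and 6.98 in dKO XY, and 7.87, 7.67, 8.17, 7.76 and 7.53 in control XX gonads. Both control groups lay above every dKO XY array, and the dKO XY arrays spread more widely (SD 0.49) than control XY (SD 0.09) or control XX (SD 0.24). It fell by 0.84 (SE 0.18, adjusted p = 0.00648) in dKO XY against control XY. Against control XX the difference was -1.02 (SE 0.18, adjusted p = 0.000854), while the controls differed by 0.18 (95% interval -0.21 to 0.57, adjusted p = 0.575). *Hoxc8* was past the 2-fold threshold against ovaries, but with the lowest array, dKO XY replicate 3, left out the difference was -0.82 and no longer 2-fold.

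*Hoxc9* sets the thoracic identity of motor neurons. Its control XY mean was 6.74 ± 0.16, against 6.41 ± 0.14 for dKO XY and 6.60 ± 0.06 for control XX gonads (SD, n = 5). It fell by 0.33 (SE 0.09, adjusted p = 0.0211) in dKO XY against control XY, and the arrays of the groups overlapped. *Hoxc10*, a lumbar motor neuron gene, varied most among the controls, from 5.99 to 6.89 in control XY and from 5.33 to 6.64 in control XX. Its mean in dKO XY was 5.62 and the difference from control XY -0.65 (SE 0.22) did not pass (adjusted p = 0.0796). *Hoxc11*, *Hoxc12* and *Hoxc13*, the last a hair follicle gene, were not above background and differed by -0.08 to 0.09.

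The *Hoxd* genes followed another order, with control XY highest, dKO XY next and control XX lowest for *Hoxd8*, *Hoxd9* and *Hoxd10*. *Hoxd* genes of these numbers are known for limb and lumbar patterning. *Hoxd10* measured 8.81, 9.04, 8.36, 8.73 and 8.42 in control XY, 7.89, 8.10, 7.99, 8.08 and 7.89 in dKO XY, and 7.09, 7.73, 7.66, 7.17 and 7.69 in control XX gonads. No array of one group overlapped another group. *Hoxd10* fell by 1.21 (SE 0.15, adjusted p = 8.99e-06) in control XX against control XY and by 0.68 (SE 0.15, adjusted p = 0.00591) in dKO XY against control XY. The dKO XY gonads stayed 0.52 (SE 0.15, adjusted p = 0.0221) above control XX. Leaving out replicate 2 or 4 of dKO XY, or replicate 1 or 4 of control XX, took this last call past the threshold (adjusted p up to 0.0627).

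*Hoxd9* measured 6.73, 6.73, 6.70, 6.58 and 6.55 in control XY, 6.30, 6.02, 6.08, 6.34 and 6.32 in dKO XY, and 5.64, 5.79, 5.99, 5.83 and 6.0 in control XX gonads. Again the 3 groups did not overlap. The differences from control XY were -0.45 (SE 0.09, adjusted p = 0.00369) in dKO XY and -0.81 (SE 0.09, adjusted p = 3.06e-06) in control XX, and dKO XY minus control XX was 0.36 (SE 0.09, adjusted p = 0.00968). The control XX mean, at 5.85, was not above background, which bounds how low the ovary level can be read.

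*Hoxd8* averaged 7.78 ± 0.09 over control XY arrays, 7.55 ± 0.06 over dKO XY arrays and 7.16 ± 0.14 over control XX arrays (SD, n = 5). Control XX was lower than control XY by -0.62 (SE 0.08, adjusted p = 9.75e-06) and dKO XY was 0.39 (SE 0.08, adjusted p = 0.00184) above control XX. The arrays of dKO XY and control XY did not overlap, but the difference of -0.23 (SE 0.08) did not pass (adjusted p = 0.062). *Hoxd11*, which acts with *Hoxa11* in forearm and kidney, did not keep this order. It averaged 6.51 ± 0.22 over control XY, 5.91 ± 0.16 over dKO XY and 6.41 ± 0.27 over control XX arrays. It fell by 0.60 (SE 0.13, adjusted p = 0.0073) in dKO XY against control XY and by 0.50 (SE 0.13, adjusted p = 0.0151) against control XX, while the controls differed by -0.10 (95% interval -0.38 to 0.18). Its dKO XY mean was not above background. *Hoxd10* and *Hoxd11* overlap in the RefSeq gene table, so their signals may not be fully separate. *Hoxd1*, *Hoxd12* and the digit gene *Hoxd13* were not above background and differed by 0.12 to 0.21 between dKO XY and control XY without passing.

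**Figure D2:**
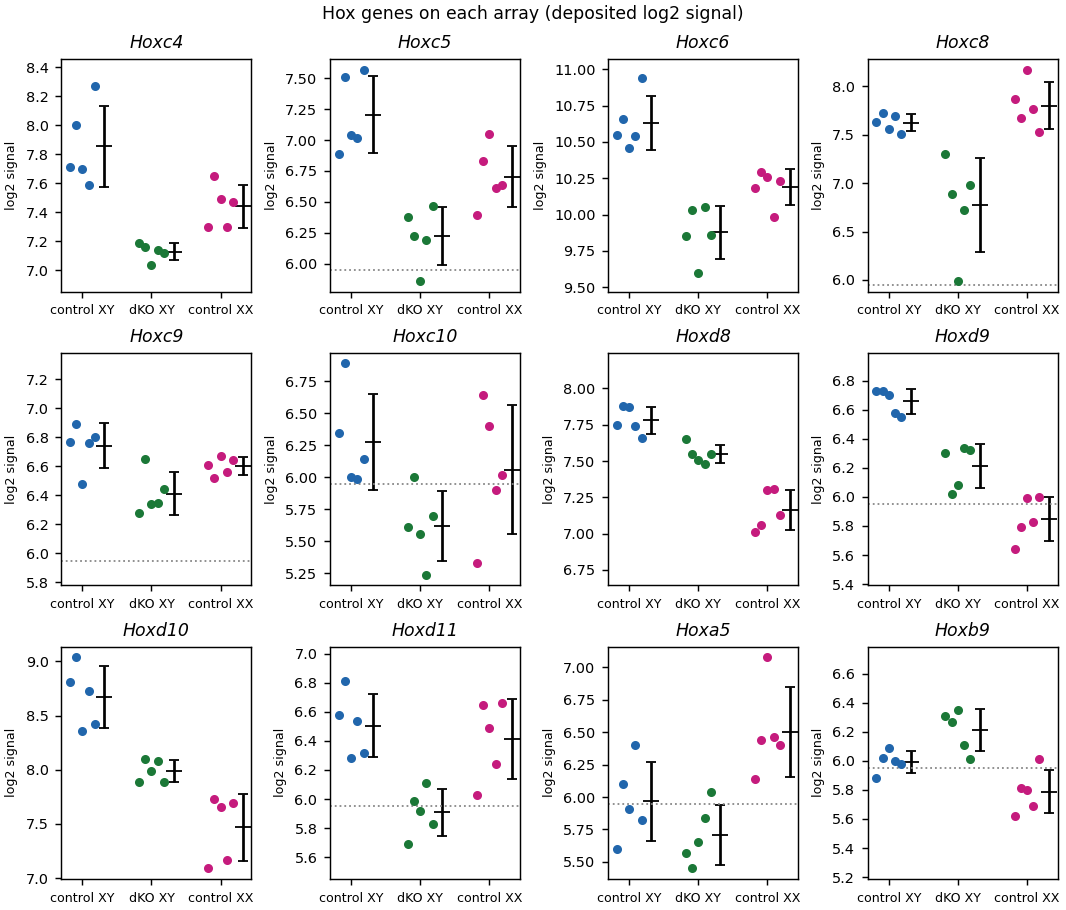
Deposited log2 signal of 12 Hox genes on each of the 15 arrays, with control XY in blue, dKO XY in green and control XX in pink. Points are arrays, bars are means ± SD (n = 5), and the dotted line, where in range, is the background level of 5.95. The 3 groups stand apart for *Hoxd9* and *Hoxd10*, and for *Hoxc8* all dKO XY arrays lie below the controls.

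The promoters of members given array by array are shown because these members carry the differences above, and CpG-rich start regions are where Polycomb proteins gather in mammals. Of the 33 members, 17 had a promoter in the RefSeq table (GRCm38.p6, 250 bases before to 50 after a start), with 19 promoters in all. *Hoxc4*, *Hoxd9* and *Hoxd10* were among them and read as follows, 5′ to 3′ on the plus strand with each CpG in capitals.
Hoxc4, chr15:103034145-103034444: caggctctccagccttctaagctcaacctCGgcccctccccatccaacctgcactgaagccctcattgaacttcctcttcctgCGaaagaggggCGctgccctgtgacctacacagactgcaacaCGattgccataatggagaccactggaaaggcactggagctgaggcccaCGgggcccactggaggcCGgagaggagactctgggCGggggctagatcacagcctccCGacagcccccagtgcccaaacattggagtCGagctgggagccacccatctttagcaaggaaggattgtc
Hoxd9, chr2:74697513-74697812: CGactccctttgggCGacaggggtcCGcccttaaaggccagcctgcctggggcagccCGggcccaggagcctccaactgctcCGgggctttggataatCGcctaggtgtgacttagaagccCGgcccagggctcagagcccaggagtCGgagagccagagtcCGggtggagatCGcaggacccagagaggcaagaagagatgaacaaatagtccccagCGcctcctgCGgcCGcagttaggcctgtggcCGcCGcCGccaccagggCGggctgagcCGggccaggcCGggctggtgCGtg
Hoxd10, chr2:74691641-74691940: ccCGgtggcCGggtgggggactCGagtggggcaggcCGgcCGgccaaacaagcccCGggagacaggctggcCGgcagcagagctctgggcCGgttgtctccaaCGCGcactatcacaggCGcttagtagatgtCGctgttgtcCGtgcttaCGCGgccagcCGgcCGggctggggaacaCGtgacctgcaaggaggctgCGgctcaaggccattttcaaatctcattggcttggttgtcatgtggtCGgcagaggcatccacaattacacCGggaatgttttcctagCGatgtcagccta
*Hoxc4* held 9 CpGs and *Hoxd9* and *Hoxd10* held 20 and 22. The median was 20 over the 19 member promoters and 7 over all 32851 promoters, of which 26.5% held 20 or more. The motifs were searched on both strands. The HOX-PBX motif TGATNNAT stood in 4 of 19 member promoters (8.85% of all), the MEIS/PKNOX motif TGACAG in 2 of 19 (19.2% of all), the homeodomain core TAATTA in 2 of 19 (5.29% of all) and the SMAD box CAGAC in 7 of 19 (49.6% of all). Of the 3 promoters shown, *Hoxc4* held 1 SMAD box and no other match was found. A match describes letters in this window and not a bound site.

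Of the *Hoxb* and *Hoxa* genes, 3 of 9 and 2 of 8 were above background in any group, against 6 of 9 *Hoxc* and 4 of 7 *Hoxd* genes, and no test compared the clusters. *Hoxb5*, which acts in lung, gut and vascular development, averaged 6.04 ± 0.11 over control XY, 5.74 ± 0.15 over dKO XY and 6.0 ± 0.17 over control XX arrays (SD, n = 5). *Hoxb9*, a thoracic patterning gene, went the other way, with 5.99 ± 0.08, 6.21 ± 0.14 and 5.79 ± 0.15 for the same groups. Its dKO XY mean was higher than that of control XX by 0.42 (SE 0.09, adjusted p = 0.00241), but the differences of 0.22 (adjusted p = 0.141) from control XY and -0.21 (adjusted p = 0.0962) between the controls did not pass. The control XX mean of *Hoxb9*, at 5.79, was not above background, which bounds how low the ovary level can be read.

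*Hoxa5*, known for lung and cervical skeleton, was highest in ovaries, with means of 6.5 ± 0.34 for control XX, 5.97 ± 0.30 for control XY and 5.71 ± 0.23 for dKO XY. The control XX arrays were above control XY by 0.54 (SE 0.17, adjusted p = 0.0291), a call lost without control XY replicate 1, 3 or 5 or control XX replicate 3 (adjusted p up to 0.0824). The same call was lost when only the compared groups were fitted (0.053) and with the methods' unmoderated test (0.0581). The dKO XY arrays lay below all control XX arrays, by 0.79 on average. That difference, -0.79 (SE 0.17), passed (adjusted p = 0.00385), as did -0.37 (SE 0.10, adjusted p = 0.0192) for its neighbour *Hoxa6*, whose control XX mean was 6.14. The *Hoxa6* call did not hold in the fits that omitted replicate 1 of dKO XY or replicate 2 or 5 of control XX.

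Over all members, control XX minus control XY gave 2 higher and 6 lower genes of 33, where 10.8% and 13.4% of all clusters (15.2% and 15.3% of those with 1 symbol) were called. The higher genes were *Hoxa5* and *Hoxa3*, the latter below background at 5.29 against 5.09 and lost as a call in 11 of 15 fits that left out an array. dKO XY minus control XX gave 4 higher and 6 lower genes, against 7.55% and 7.51% of all clusters (11.6% and 10.4% of those with 1 symbol). The higher genes were *Hoxb9*, *Hoxd8*, *Hoxd9* and *Hoxd10*, and the lower genes *Hoxa3*, *Hoxa5*, *Hoxa6*, *Hoxc5*, *Hoxc8* and *Hoxd11*. The *Hoxc5* call (adjusted p = 0.0492) was lost in 10 of 15 fits that left out an array (adjusted p up to 0.13) and in 4 other settings, and the *Hoxa3* call in 3 of 15 (adjusted p up to 0.0633) and when only both compared groups were fitted. The comparisons share arrays, so their calls are not independent of each other. At 2-fold, *Hoxd10* was the 1 lower member in control XX minus control XY and *Hoxc8* in dKO XY minus control XX, and no member was higher, beside 3.22% and 1.28% of all clusters lower and 2.54% and 1.22% higher. Arrays of dKO XY lay below control XY without overlap for 8 members and above for 0, beside 4.59% and 4.26% of all clusters. The counts were 4 below and 2 above for control XX against control XY (9.79% and 8.38%), and 4 below and 3 above for dKO XY against control XX (5.89% and 6.4%).

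**Figure D3:**
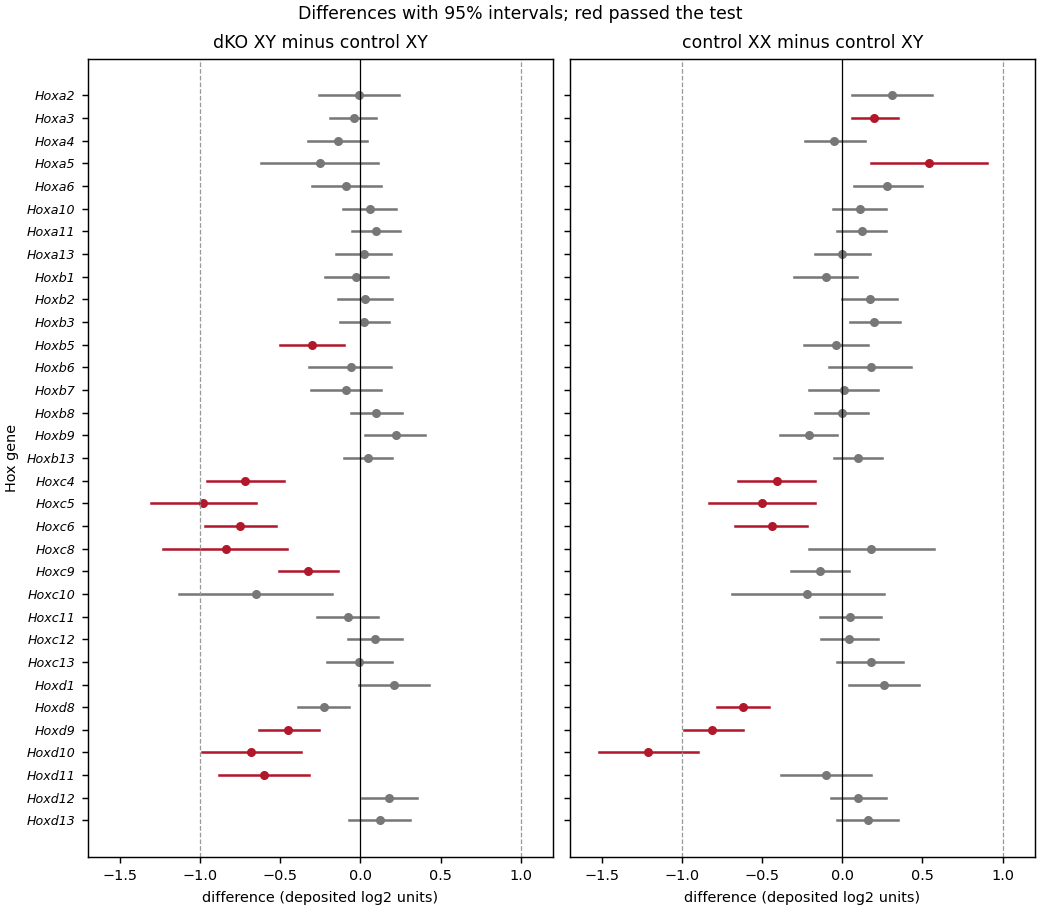
Differences between groups for the 33 Hox genes with 95% intervals (deposited log2 units), dKO XY minus control XY on the left and control XX minus control XY on the right. Red genes passed the test, and dashed lines mark 1 unit. On the left no point reaches the dashed line, and on the right *Hoxd10* lies past it.

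Of 4 microRNA genes measured inside the Hox clusters, *Mir10b* and *Mir196a-1* were lower in dKO XY against control XY, and *Mir196a-2* (0.03, adjusted p = 0.94) and *Mir615* (-0.14, adjusted p = 0.688) did not pass. MicroRNAs of the miR-10 and miR-196 families are encoded between Hox genes and are known to target Hox transcripts, miR-196 targeting *Hoxb8*. The array measured 6 of 16 listed noncoding genes, and 2 were lower in dKO XY against control XY, beside 5.89% of clusters with 1 symbol. The mature sequences, from RefSeq (GRCm38.p6), are shown with the seed, bases 2 to 8, in capitals.
miR-10b-5p (Mir10b, in the Hoxd cluster): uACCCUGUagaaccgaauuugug
miR-10a-5p (Mir10a, in the Hoxb cluster): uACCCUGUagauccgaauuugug
miR-196a-5p (Mir196a-1 in Hoxb and Mir196a-2 in Hoxc): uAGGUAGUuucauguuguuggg
miR-196b-5p (Mir196b, in the Hoxa cluster): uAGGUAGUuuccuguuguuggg
The miR-10 pair shares the seed ACCCUGU and the miR-196 members share AGGUAGU. The array reads the precursor's region and not the mature strand. *Mir10b* measured 6.21, 5.41, 6.27, 6.39 and 6.63 in control XY, 5.12, 4.92, 4.56, 4.54 and 3.98 in dKO XY, and 4.49, 5.78, 5.91, 5.12 and 4.86 in control XX gonads. All dKO XY arrays lay below all control XY arrays, and only the control XY mean was above background. It fell by 1.55 (SE 0.28, adjusted p = 0.00205) in dKO XY, where all 5 arrays were under the background level, so the size of that fall is not a measured ratio. *Mir10b* was also lower in control XX than in control XY, by -0.95 (SE 0.28, adjusted p = 0.021). That call held in 12 of 15 fits that left out an array and was lost with the methods' unmoderated test (0.0509). *Mir10b* lies within the span of *Hoxd3* and *Hoxd4*, both without a cluster of their own here.

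*Mir196a-1* averaged 8.57 ± 0.31 over control XY, 7.97 ± 0.18 over dKO XY and 7.56 ± 0.28 over control XX arrays (SD, n = 5). It fell by 0.61 (SE 0.15, adjusted p = 0.0178) in dKO XY and by 1.01 (SE 0.15, adjusted p = 9.46e-05) in control XX against control XY. The first call was lost without dKO XY replicate 3 (adjusted p = 0.0509). *Mir196a-2*, encoded in *Hoxc* between *Hoxc9* and *Hoxc10*, was not above background in any group at 5.55 to 5.64, and *Hotair* and *Mir615* of the *Hoxc* cluster stood at 4.77 to 4.84 and 4.50 to 4.63.

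Of 8 measured TALE cofactor genes, 4 were lower and none higher in dKO XY against control XY, with a median difference of -0.31 beside 0.01 over all clusters. Of clusters with 1 symbol, 5.89% were lower and 7.53% higher. *Meis2* fell by 1.10 (SE 0.12, adjusted p = 3.29e-05), from 9.72 in control XY to 8.63, *Pknox2* by 0.89 (SE 0.15, adjusted p = 0.00117) and *Meis1* by 0.64 (SE 0.12, adjusted p = 0.0029). The dKO XY arrays of these 3 genes did not overlap control XY. *Pknox1*, the other lower cofactor, fell by 0.31 (SE 0.08, adjusted p = 0.022), a call lost in 5 of 15 fits that left out an array. Control XX minus control XY gave 2 higher and 2 lower cofactors, where 15.2% and 15.3% of clusters with 1 symbol were called. *Pbx3* stood at 11.33 in control XX against 9.49 in control XY, a difference of 1.85 (SE 0.11, adjusted p = 1.59e-09), while dKO XY, at 9.76, differed from control XY by 0.27 (SE 0.11) without passing (adjusted p = 0.131). *Pknox2* was lower in control XX by -1.75 (SE 0.15, adjusted p = 1.99e-07).

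**Figure D4:**
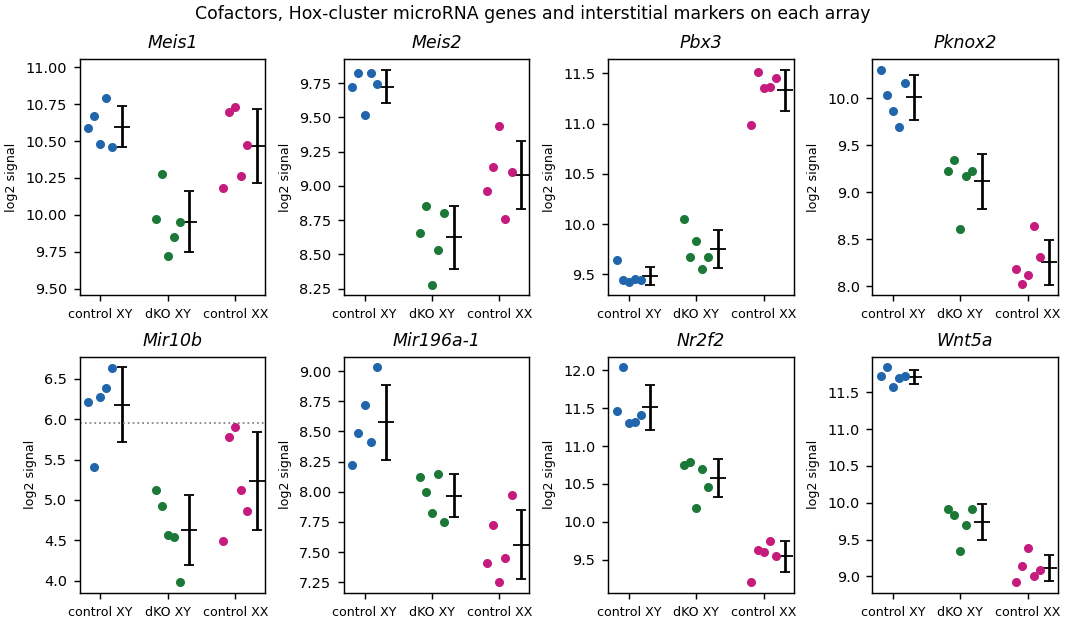
Deposited log2 signal on each of the 15 arrays for 4 TALE cofactor genes, 2 Hox-cluster microRNA genes and the interstitial markers *Nr2f2* and *Wnt5a*. Points are arrays, bars are means ± SD (n = 5), and the dotted line is the background level of 5.95. *Meis2*, *Pknox2*, *Nr2f2* and *Wnt5a* are lower in dKO XY than in control XY on every array, and *Pbx3* is high only in control XX.

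The chromatin regulators of Hox genes were mostly not called in dKO XY. Of 17 Polycomb genes measured, 3 were lower and none higher in dKO XY against control XY, with a median difference of 0.05. In that comparison, 5.89% of clusters with 1 symbol were lower and 7.53% higher. *Eed*, the Polycomb subunit that reads methylated histone H3, fell by 0.54 (SE 0.12, adjusted p = 0.00627) and *Phc2* by 0.28 (SE 0.07, adjusted p = 0.0184), and *Ezh1* sat at the threshold (-0.50, adjusted p = 0.0497). Of 10 Trithorax genes, 1 was higher. This was the X-linked histone demethylase gene *Kdm6a*, whose means were 11.12 for dKO XY, 10.56 for control XY and 12.89 for control XX (dKO XY minus control XY 0.56, SE 0.09). In control XX minus control XY, 2 Polycomb genes were higher and 5 lower (*Eed* by -0.93, SE 0.12), and 2 Trithorax genes were higher (*Kdm6a* by 2.33, SE 0.09) and 3 lower. These counts stand beside 15.2% higher and 15.3% lower of clusters with 1 symbol. Among 10 genes upstream of Hox, the retinoid receptor genes *Rxra* and *Rarg* fell by 0.38 (SE 0.07) and 0.37 (SE 0.08). The genes flanking the Hox clusters did not fall as a block. Of 14 measured, 2 were higher (*Calcoco2*, by 0.70 with SE 0.17, and *Hibadh*, by 0.32 with SE 0.08) and 2 were lower (*Tax1bp1*, -0.33, and *Cbx5*, which flanks *Hoxc*, -0.23). For *Calcoco2* only the dKO XY mean, 6.32, was above background, against 5.62 in control XY, so the size of that rise is not a measured ratio. The calls of *Ezh1*, *Tax1bp1* and *Cbx5* were lost in several settings (adjusted p up to 0.133), and that of *Phc2* after a second quantile normalisation (0.0568) and without control XY replicate 5 (0.0562).

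Markers of some other cell types also differed between the groups. In whole gonads, fewer cells of a type and less RNA per cell cannot be told apart. Of 9 measured markers of interstitial progenitors, 8 were lower in dKO XY against control XY, with a median difference of -1.08, and 8 were lower in control XX, with a median of -1.07. Of clusters with 1 symbol, 5.89% were lower in dKO XY and 15.3% in control XX. *Wnt5a* differed by -1.97 and *Nr2f2* by -0.94 in dKO XY, and by -2.60 and -1.97 in control XX. The mean level of the list ran from 11.14 to 11.88 over dKO XY arrays, from 12.51 to 12.82 over control XY and from 11.09 to 12.01 over control XX. The lowest dKO XY array for *Hoxb5*, *Hoxc4*, *Hoxc5*, *Hoxc6* and *Hoxc8*, replicate 3, was also lowest in its group for *Wnt5a*, at 9.34, and for *Nr2f2*, at 10.18. It was not the lowest dKO XY array for *Hoxc9*, *Hoxd9*, *Hoxd10* or *Hoxd11*. Replicate 3 was also the lowest dKO XY array for genes of other lists, such as *Mael* (13.78), *Cdh5* (12.69), *Star* (13.50) and *Eed* (10.57). It was the highest dKO XY array for *Cst9*, at 14.31, and had the highest array median, 5.33. The match was therefore not particular to interstitial markers. Of 6 smooth muscle markers, 5 were lower in dKO XY, with a median of -0.76. The part of these cells in the Hox differences was not tested. In dKO XY against control XY, surface epithelium markers were higher for 3 of 6 and granulosa cell markers for 6 of 7, with none lower. Of clusters with 1 symbol, 7.53% were higher. Of 7 markers of mesonephros and ducts, none was called in dKO XY against control XY. The mean level of the list was 5.21 to 5.47 in dKO XY and 5.12 to 5.36 in control XY arrays. *Pax2*, *Wnt7a*, *Wnt9b*, *Cdh16* and *Lhx1* had means below background in all groups, with *Pax2* means of 3.96 to 4.04. *Lhx1* ran from 5.43 to 6.16 in dKO XY and from 5.13 to 6.07 in control XY arrays. Its difference of 0.54 (SE 0.17) narrowly missed the threshold (adjusted p = 0.0516). Against control XX, 1 of the 7 markers was higher in dKO XY and 1 was lower. The higher was *Lhx1*, by 0.89 (SE 0.17, adjusted p = 0.00127), and the lower *Pax8*, by -0.85 (SE 0.14, adjusted p = 0.000516). Of clusters with 1 symbol, 11.6% were higher and 10.4% lower in that comparison. *Ret* (7.11, 6.73 and 7.38 for dKO XY, control XY and control XX) and *Pax8* (6.20, 6.17 and 7.05) were above background in all groups, and both were higher in control XX against control XY, by 0.65 (SE 0.14) and 0.87 (SE 0.14).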

How the data were processed

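RNA of E15.5 gonads was amplified, biotin-labelled and hybridised to Affymetrix Clariom D mouse arrays, 1 array per sample. The authors deposited 1 log2 signal per transcript cluster, normalised by an RMA-type method in the manufacturer's software. Which genome build the annotation follows is not given in the sources used here. The labels give the age as E15.5, but the data statement of the study places the accession at an earlier stage, and the RNA input differs between labels and methods.

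Samples were grouped from the labels. Of 72688 entries, 6732 control probes were left out, and limma 3.58.1 in R 4.3.3 was fitted to the other 65956 clusters with 1 mean per group over all 15 arrays (lmFit, eBayes, two-sided, Benjamini-Hochberg). The study's methods used a one-way model and a 2-fold threshold, given here as a stricter call. The number of arrays limits the precision. Array medians ran from 5.17 to 5.33, and the mean correlation of an array with its group from 0.991 to 0.995. The script was tested on simulated data.

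The members, the gene lists and the rules were chosen with earlier results of these data known. Values of every array are given for members past 2-fold in any comparison and for the 6 with the smallest p in dKO XY minus control XY, and up to 4 genes that passed are named per list. Lists covered TALE cofactors, Polycomb, Trithorax, upstream regulators, noncoding RNA, cluster neighbours and 13 cell types. For the cell types not described with the results, the higher and lower genes of those measured in dKO XY minus control XY were 1 and 3 of 6 for Sertoli, 1 and 0 of 6 for germ, 0 and 1 of 4 for fetal Leydig, 1 and 0 of 3 for adrenal cortex markers, and 0 and 0 of 6 for endothelial, of 4 for macrophage, of 3 for erythroid and of 2 for neural crest markers. Of clusters with 1 symbol, 7.53% were higher and 5.89% lower in that comparison. The alternatives were fits of only the groups compared, a second quantile normalisation, centred medians, array weights, a replicate block, a background filter, the methods' unmoderated test, an intensity trend, the 2-fold threshold and leaving out each array.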

Additional observations from a re-analysis of the deposited data

Results flagged for a closer look

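In 6 of 99 sets of 5 arrays (33 genes in 3 groups), the highest or lowest array stood apart from the other 4 by more than the 95% critical value of Dixon's test, and chance alone gives about 1 in 20. *Hoxb6* read 5.89 in dKO XY replicate 4, where the others read 6.09 to 6.13. Replicate 3 of dKO XY was high for *Hoxb8*, at 5.10 (others 4.71 to 4.78), and for *Hoxd1*, at 4.83 (others 4.47 to 4.53), both below background. Replicate 3 of control XX was high for *Hoxb7*, at 5.78 (others 5.20 to 5.32), and for *Hoxc11*, at 3.90 (others 3.73 to 3.78). *Hoxd12* read 4.09 in control XX replicate 1 (others 3.96 to 3.99). None of these genes passed in any comparison.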

How the results depend on the processing

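With a 2-fold threshold, the lower genes of dKO XY minus control XY went from 9 to 0 (*Hoxc* and *Hoxd* also 0), those of control XX minus control XY from 6 to 1 and the higher ones from 2 to 0, and those of dKO XY minus control XX from 6 to 1 and from 4 to 0. Higher genes of control XX minus control XY numbered 0 when only the compared groups were fitted, 5 after a second quantile normalisation or centred medians, and 4 with array weights. Leaving out 1 array gave 0 to 4 of these, 5 to 6 lower, 7 to 10 lower in dKO XY minus control XY, and 3 to 8 lower in dKO XY minus control XX. The low end, 3, came without control XX replicate 2.

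In dKO XY minus control XY, *Hoxc4*, *Hoxc5*, *Hoxc6*, *Hoxc8*, *Hoxd9*, *Hoxd10* and *Hoxd11* stayed past an adjusted p of 0.05 in all settings run. *Hoxb5* lost its call in 6 settings and 11 of 15 leave-outs (adjusted p up to 0.129), and *Hoxc9* when only 2 groups were fitted (0.0557), after a second quantile normalisation (0.0583) and in 4 of 15 leave-outs. *Hoxc10* passed with only 2 groups (0.0448), the background filter (0.0473), the block (0.0246) and without control XX replicate 1 (0.0385). *Hoxd8* passed with array weights (0.0354), the filter (0.0367) and the unmoderated test (0.0451).

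Same-numbered arrays correlated at -0.191 to 0.189 after group means were removed, so the number was not taken to pair them. With the replicate block, 9 genes were lower in dKO XY minus control XY, 6 in control XX minus control XY and 5 in dKO XY minus control XX. No member had a further cluster, so that alternative gave no value.

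Small differences that changed sign, none past the threshold, were *Hoxa2* (0.01 with both rescalings and with weights), *Hoxb1* (0.01, weights) and *Hoxc13* (0.01, medians and weights) in dKO XY minus control XY, and *Hoxa13* (0.04, medians, and 0.02, weights), *Hoxb5* (0.03, quantile, and 0.00, medians) and *Hoxb8* (0.01 and 0.04) in control XX minus control XY. Over leave-outs, dKO XY minus control XY ran from -0.05 to 0.02 for *Hoxa2*, -0.10 to 0.01 for *Hoxb1*, -0.05 to 0.04 for *Hoxc13*, -0.04 to 0.06 for *Hoxa13*, -0.01 to 0.09 for *Hoxa10*, -0.02 to 0.06 for *Hoxb2* and -0.15 to 0.01 for *Hoxb6*. Control XX minus control XY ran from -0.07 to 0.03 for *Hoxa13*, -0.04 to 0.03 for *Hoxb8*, -0.08 to 0.01 for *Hoxa4*, -0.09 to 0.05 for *Hoxb7* and -0.16 to 0.00 for *Hoxd11*. dKO XY minus control XX ran from -0.01 to 0.05 for *Hoxa13*, -0.02 to 0.10 for *Hoxc12*, -0.11 to 0.01 for *Hoxd13*, -0.04 to 0.00 for *Hoxa11* and -0.14 to 0.00 for *Hoxb7*. The cause of the changes was not tested.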
